A study of Arabidopsis thaliana with 15 samples.

Results

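Leaves of Arabidopsis thaliana plants that carried mutant alleles of all 4 DNA demethylase genes (drdd) were compared with leaves of wild-type segregants (WT). DNA demethylases of plants are glycosylases that cut 5-methylcytosine out of DNA, after which base excision repair puts in an unmethylated cytosine. DME is best known from the central cell of the ovule, where it opens maternally expressed imprinted genes, and ROS1, DML2 and DML3 act in the body of the plant, often at methylated sequence close to genes. Methylation at a promoter usually goes with a silent gene, although some genes are known to need methylation near them to be active.

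The comparison rests on 7 of the 15 libraries of the series, the 3 titled drdd B to D and the 4 titled WT A to D, and covers the 18598 of 37336 genes that passed the count filter. All 4 mutations together make up the drdd genotype (dme-2, ros1-3, dml2-1 and dml3-1), and WT plants are segregants with these genes intact. Every group of the series, WT included, is labelled with a DME transgene under the AGL61 promoter, which is active in the central cell, so the controls share the transgene. The tissue was the fifth rosette leaf on day 21, grown at 22 °C and 50% relative humidity with 16 h of light per day. The other 8 libraries, from dme plants (dme-2) and rdd plants (ros1-3, dml2-1 and dml3-1), 4 each, helped to estimate the spread, and rdd served as a second comparison that shares the drdd libraries. The series title names flowering time as an outcome. Whether replicates came from separate plants is not in the labels. The p-values therefore cover only how these libraries vary, some of which could be technical.

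Libraries of both groups held 8730340 to 17958747 counts in genes, and 1 count was worth 0.0811 to 0.114 CPM in WT. CPM are counts scaled to a common library size, and values are mean ± SD with n = 4 for WT and rdd and n = 3 for drdd. The label of a leaf was checked on markers. The small Rubisco subunit gene RBCS1A had 23653 ± 3706 CPM in WT and 18678 ± 2834 in drdd, while the meristem markers STM, WUS and CLV3 and the seed and embryo markers SESA1, SESA4, OLEO2 and LEC1 had no count in any WT or drdd library. Of 12 meristem and floral organ markers 8 had some count and 2 passed the filter, and of 13 pollen and seed markers 9 had some count, 3 passed and FUS3, an embryo regulator, fell (0.892 to 3.08 CPM in WT, at most 0.295 in drdd, adjusted p = 0.0221, lost without WT B, WT C, drdd B or drdd D, up to 0.124). The WT libraries were not alike. On the principal component that held 36% of the variance over all libraries, WT A and WT C lay at −60.7 and −39.3, WT B and WT D at 18.9 and 16.3, and the drdd libraries between 2.64 and 29.8. A list of 24 measured genes of salicylic acid defence followed the same split, with mean log2 CPM of 5.21 in WT A, 4.53 in WT C, 2.15 in WT B and 2.2 in WT D, against 2.05 to 3.38 in drdd. Results that rest on this split are therefore given with and without WT A and WT C.

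Calls were made with edgeR's quasi-likelihood test at 0.05 after Benjamini-Hochberg adjustment. In drdd 104 genes rose (0.559% of the tested genes) and 147 fell (0.79%), which made 251 calls (1.35%). The median called fall was −1.46 on the log2 scale, 63 falls were under 2-fold, 33 falls were over 16-fold and 10 of the fallen genes had no count in any drdd library. The median called rise was 1.65, 23 rises were under 2-fold, 16 rises were over 16-fold and 2 of the risen genes had no count in WT. Falls also took more of the abundant transcripts, with 25 fallen genes over 100 CPM in WT and 5 risen genes over 100 CPM in drdd. Over all tested genes the median log2 fold change was −0.003. In drdd 1234 genes lay above every WT library (6.64%) and 1201 below (6.46%), and 101 of the called rises and all 147 called falls were among them.

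How many genes were called depended on single libraries. The count was 125 without WT C, 119 without drdd B, 105 without drdd C and 109 without WT A and WT C together, of which 93 were among the 251. Leaving out WT B alone gave 171 calls, with 67 rises. All 104 rises and each of the 146 falls still measured kept their sign without WT A and WT C. DESeq2 called 643 genes. The authors' deposited table has an adjusted p under 0.05 for 690 of 20427 genes (3.38%), 362 higher (1.77%) and 328 lower (1.61%), among them 101 of the 104 rises and 144 of the 147 falls in the same direction. Of the calls, 17 rises and 39 falls passed in all 22 alternative runs, which changed the normalization, the filter, the test or the libraries used.

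**Figure D1:**
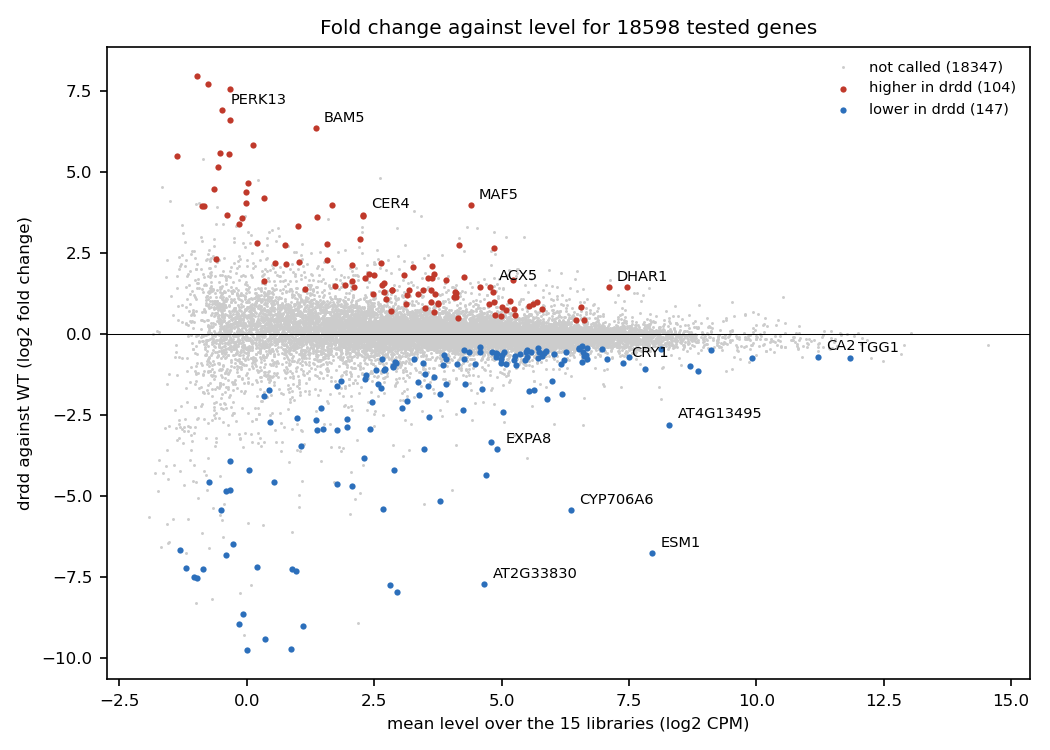
Each point is 1 of 18598 tested genes, with the mean level over all 15 libraries on the x axis (log2 CPM) and the log2 fold change of drdd against WT on the y axis. The 104 called rises are red and the 147 called falls blue. ESM1, CYP706A6 and AT4G13495 are fallen genes with high levels.

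Transcripts of the mutated genes were still counted in drdd, and a count per gene does not show where in the gene its reads fall. DML2 had 26.4 ± 4.41 CPM in WT and fell to 8.99 ± 2.29 in drdd (log2 fold change −1.54, SE 0.22, adjusted p = 0.00221), and ROS1, DME and DML3 were not called (adjusted p = 0.298, 0.386 and 0.102). None of 26 genes of the DNA methylation and RNA-directed DNA methylation machinery was called (median log2 fold change 0.07), and neither was any of 9 partners of demethylation or base excision repair genes (median 0.0). Some listed members were not matched to a locus and are not covered. They are CLSY2, CLSY3 and CLSY4 of the machinery and IDM3, HDP1, HDP2, ZDP, APE1L, APE2 and FPG1 of the partners. The authors' deposited DESeq2 table calls DML3 lower (log2 fold change −1.04, adjusted p = 0.0308). Of the machinery that table calls SUVH9 lower (−0.75, adjusted p = 8.56e-06). Among 14 floral repressors MAF5 rose, from 1.74 to 5.84 CPM in WT to 48.9 to 62.1 in drdd (log2 fold change 3.97, SE 0.35, adjusted p = 2.47e-05). FLC, the central repressor of flowering, had no count in any drdd library and 0.324, 0.228, 6.36 and 17.5 CPM in WT A to D, and was not called (adjusted p = 0.103). The authors' deposited table calls FLC lower, at an adjusted p of 0.00913. None of 12 measured floral promoters was called against WT (median log2 fold change 0.35, 8 positive and 4 negative). Their mean log2 CPM per library was 2.77 to 2.94 in drdd and 2.17 to 2.65 in WT. SOC1, of this list, was called above rdd (adjusted p = 0.0416 in edgeR's quasi-likelihood test), a call lost in 10 of 22 alternatives. The authors' deposited DESeq2 table calls FT higher (log2 fold change 2.14, adjusted p = 0.0428).

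The falls are given by where rdd stood, beginning with genes that were low in drdd while rdd was nearer to WT than to drdd. CYP706A6, a cytochrome P450, had 122, 185, 145 and 212 CPM in WT A to D, against 3.08, 3.44 and 5.11 CPM in drdd B to D. No drdd library came near the WT range. Its log2 fold change was −5.44 against WT (SE 0.28, adjusted p = 6.65e-08) and −5.64 against rdd (SE 0.29, adjusted p = 1.33e-07), where the level was 192 ± 32.2 CPM. Both calls passed in all 22 alternatives. CYP706A6 lies in a row with 3 close relatives, none of which was called: CYP706A4 had 20 ± 2.14 CPM in WT and 22.7 ± 3.89 in drdd, CYP706A5 had 54.5 ± 14.2 and 26.3 ± 13.6 (adjusted p = 0.21), and CYP706A7 was under the count filter. How reads shared between such relatives were counted is not known here, so the separate levels are uncertain. The 250 bases before the annotated start of CYP706A6 are shown, from RefSeq assembly TAIR10.1 (chr4:7316872-7317121, minus strand, written 5′ to 3′ with CG in capitals). The mutated enzymes act on 5-methylcytosine, and cytosines outside CG are not marked or counted here. The sources name no build for the counts; all nuclear gene identifiers in the files matched this annotation, and coordinates are those of the reference.
CYP706A6: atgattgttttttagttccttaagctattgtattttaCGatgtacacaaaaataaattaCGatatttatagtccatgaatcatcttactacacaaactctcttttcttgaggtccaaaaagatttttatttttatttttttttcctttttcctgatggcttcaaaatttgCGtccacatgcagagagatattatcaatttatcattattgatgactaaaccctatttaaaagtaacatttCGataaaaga
This window holds 4 CG dinucleotides, and the median over 37897 windows of that length before annotated genes is 5. Of all windows 65.4% hold as many or more. Methylation was not analysed here.

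Several other genes were also well below both WT and rdd in drdd, though rdd did not always match WT. AT5G22860, annotated as a serine carboxypeptidase of family S28, had 11 to 18.5 CPM in WT, 6.17 to 11.4 in rdd and 0.257, 0.0983 and 0.688 in drdd B to D. Its fall was −5.41 against WT (SE 0.43, adjusted p = 7.6e-06; −6.13 without drdd D) and −4.84 against rdd (SE 0.43, adjusted p = 7.02e-05). Expansins loosen cell walls, and EXPA8 fell from 34.8, 76.0, 51.4 and 58.0 CPM in WT A to D to 2.0, 7.28 and 5.11 in drdd B to D (log2 fold change −3.56, SE 0.41, adjusted p = 0.000383). Against rdd, at 54.9 ± 16.6 CPM, the log2 fold change was the same (−3.56, SE 0.41, adjusted p = 0.00133). EXPA8 was the only called fall among 13 measured alpha-expansins. The 1 called rise of that family was EXPA10 (17.3 ± 6.96 to 42.1 ± 6.40 CPM, adjusted p = 0.045), a call that 12 of the 15 runs with 1 library left out did not return and that had an adjusted p of 0.242 without WT A and WT C.

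AMP1, a carboxypeptidase-like protein known for restraining the size of the shoot meristem and the rate of leaf formation, was lowest in drdd and highest in rdd. It stood at 12.2 to 14.6 CPM in WT, 17.3 to 25.8 in rdd and 4.47, 6.69 and 5.41 in drdd B to D. The drop was −1.32 against WT (SE 0.17, adjusted p = 0.00057) and −2.05 against rdd (SE 0.17, adjusted p = 4.68e-05). AGP2, an arabinogalactan protein of the cell surface, had the same order, with 4.03 ± 0.374 CPM in WT, 8.22 ± 1.02 in rdd and 0.441 ± 0.510 in drdd (log2 fold change −2.96 against WT, SE 0.50, adjusted p = 0.00778; −4.68 without drdd B). Its call against WT was lost in 1 of 22 alternatives and that against rdd in none. A pair of moderate falls had little spread within groups. AT3G23080, a lipid-binding START domain protein, went from 66.8 ± 6.77 to 19.7 ± 2.46 CPM, and AT3G61210, a predicted methyltransferase, from 63.7 ± 6.42 to 19.1 ± 3.76; in rdd they had 54.8 ± 6.88 and 66.2 ± 11.2 CPM. PAL3, a member of the phenylalanine ammonia-lyase family that opens phenylpropanoid synthesis, fell from 30.9 ± 1.45 to 5.98 ± 1.43 CPM (adjusted p = 0.000313). In rdd it had 22.1 ± 5.49 CPM.

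**Figure D2:**
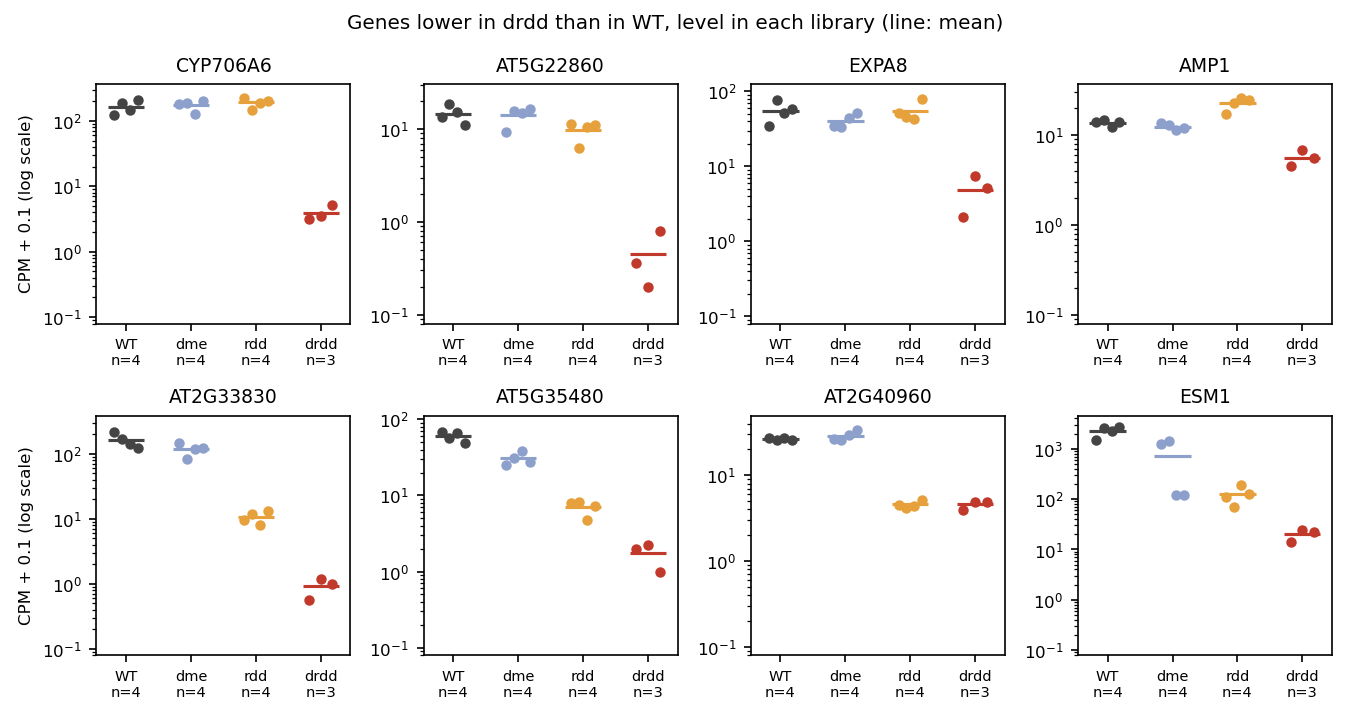
Level of 8 fallen genes in every library of WT, dme, rdd and drdd, as CPM + 0.1 on a log scale, with a line at the group mean. CYP706A6, AT5G22860, EXPA8 and AMP1 are low in the 3 drdd libraries alone, AT2G33830, AT5G35480 and ESM1 step down from WT over rdd to drdd, and AT2G40960 is as low in rdd as in drdd.

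Another set of genes stepped down from WT over rdd to drdd. AT2G33830, annotated as dormancy/auxin associated, had 218, 166, 139.8 and 123 CPM in WT A to D, 7.83 to 13.3 in rdd and 0.462, 1.08 and 0.885 in drdd B to D. No group overlapped another of these. The fall was −7.72 against WT (SE 0.37, adjusted p = 4.14e-08) and −3.80 against rdd (SE 0.35, adjusted p = 9.34e-05), each in all 22 alternatives. AT4G13495, annotated as a noncoding RNA, stood at 589 ± 71.9 CPM in WT, 236 ± 43.9 in rdd and 84.6 ± 18.1 in drdd (log2 fold change −2.80 against WT, SE 0.20, adjusted p = 2.02e-06, and −1.48 against rdd, SE 0.19, adjusted p = 0.00197).

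The neighbours AT5G35480 and MRU1 fell together. MRU1 takes its name from a mutant that accumulates methionine, in which it is raised, and is annotated as a maternally expressed imprinted gene. AT5G35480 had 48.3 to 68.7 CPM in WT, 4.66 to 8.15 in rdd and 1.85, 2.16 and 0.885 in drdd B to D (log2 fold change −5.16, SE 0.29, adjusted p = 1.07e-07). MRU1 had 14.6 to 21.9 CPM in WT, 4.91 to 8.88 in rdd and 0.770, 0.885 and 1.38 in drdd (−4.19, SE 0.34, adjusted p = 7.71e-06). Both were also lower than in rdd (adjusted p = 0.0029 and 0.000757). The genes point away from each other and are separated by 220 bases, which makes 1 stretch the upstream region of both. It is shown for that reason (TAIR10.1, chr5:13689597-13689816, plus strand, from the start of AT5G35480 to that of MRU1, CG in capitals).
AT5G35480 to MRU1: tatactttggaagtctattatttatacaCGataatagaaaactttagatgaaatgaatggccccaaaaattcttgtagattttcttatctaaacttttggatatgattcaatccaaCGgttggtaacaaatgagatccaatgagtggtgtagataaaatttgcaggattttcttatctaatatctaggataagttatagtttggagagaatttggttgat
There are 2 CG dinucleotides in it.

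ESM1 belongs to the chemical defence of the leaf. Glucosinolates are broken down by myrosinases such as TGG1, and ESM1 steers their products toward isothiocyanates. ESM1 had 1490, 2537, 2207 and 2653 CPM in WT A to D, 70.3 to 188 in rdd and 13.9, 24.8 and 22.6 in drdd B to D (log2 fold change −6.77, SE 1.00, adjusted p = 0.00444, in all 22 alternatives). Its difference from rdd was not called (−2.61, SE 0.82, adjusted p = 0.23). The dme libraries split, with 1221 and 1401 CPM in dme A and dme B and 119 in each of dme C and dme D. TGG1 fell by less, from 4330 ± 268 to 2573 ± 183 CPM (−0.75, SE 0.14, adjusted p = 0.0175), and was not called without WT C, drdd B or drdd C (adjusted p up to 0.0853) or without WT A and WT C (0.097). These were the 2 called of 7 measured genes of glucosinolate breakdown, where 0.79% of all tested genes fell. TGG2 had 1812 ± 372 and 1374 ± 228 CPM and ESP 54.6 ± 14.7 and 40.4 ± 13.6, neither of them called.

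The synthesis side showed the other sign without calls. Of 21 measured genes of aliphatic glucosinolate synthesis, 19 had positive log2 fold changes (median 1.09), none was called, and 9 lay above every WT library in all drdd libraries (6.64% of all tested genes). The authors' deposited table calls 11 of them higher. CYP83A1, which makes the aldoxime products reactive, had 144 to 169 CPM in WT and 274 to 515 in drdd (log2 fold change 1.25, SE 0.47, adjusted p = 0.251), SOT18, a sulfotransferase of the last core step, had 43.1 to 48.7 and 79.7 to 124 (adjusted p = 0.144), and UGT74B1, a glucosyltransferase of the core pathway, had 77.0 to 88.2 and 133 to 160.2 (adjusted p = 0.0975). The regulators MYB28 and MYB29 had overlapping groups, at 159 ± 23.5 and 152 ± 12.5 CPM for MYB28.

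For some falls rdd and drdd had similar levels. AT2G40960, with an R3H domain, had 26.2 ± 0.811 CPM in WT, 4.47 ± 0.432 in rdd and 4.48 ± 0.587 in drdd (log2 fold change −2.56 against WT, SE 0.14, adjusted p = 9.82e-08, and −0.02 against rdd, SE 0.14, adjusted p = 0.978). AT2G21860, annotated as related to violaxanthin de-epoxidase, went from 68.4 ± 7.89 to 13 ± 3.20 CPM with 12.8 ± 1.80 in rdd. KELP, a transcriptional coactivator, went from 100 ± 17.5 to 36.3 ± 1.80 CPM with 38.9 ± 2.25 in rdd. AT2G24755, a long noncoding RNA that the annotation notes as antisense to its neighbours, had 15.6 to 20 CPM in WT, at most 0.105 in rdd and at most 0.0513 in drdd (adjusted p = 2.44e-08). Counts of overlapping genes on opposite strands cannot be told apart here. Of the 147 falls 38 were also called against rdd, and of the 104 rises 10, and the comparisons share the drdd libraries. Against rdd 87 genes were called in all (0.468%), 27 higher (0.145%) and 60 lower (0.323%), a count that rested on single libraries. It was 19 without drdd C, 33 without drdd B, 34, 25 and 32 without rdd A, rdd C or rdd D, and 50 to 53 without WT B, WT C, dme A or dme B.

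ENT6, a nucleoside transporter, was among the 8 lowest adjusted p-values against rdd without a call against WT. It had 2.76 to 3.87 CPM in WT, 0.209 to 0.361 in rdd and 7.34, 4.13 and 5.31 in drdd B to D. The drdd level was 4.40 above rdd on the log2 scale (SE 0.38, adjusted p = 7.02e-05, in all 22 alternatives) and 0.74 above WT (SE 0.31, adjusted p = 0.307).

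CA2, a carbonic anhydrase, was among the abundant falls and had 2374 to 2782 CPM in WT and 1317, 1372 and 2098 in drdd B to D (log2 fold change −0.70, SE 0.16, adjusted p = 0.0405). GOX2, the glycolate oxidase of photorespiration, went from 1159 ± 55.0 to 691 ± 121 CPM (−0.75, SE 0.14, adjusted p = 0.0137). Groups did not overlap for either. PnsB3 and PnsL4 are subunits of the chloroplast NADH dehydrogenase-like complex, which drives cyclic electron flow. PnsB3 had 179, 294, 238 and 318 CPM in WT A to D, against 92.3, 118 and 154 in drdd B to D (−1.08, SE 0.19, adjusted p = 0.0109), and also stood below rdd (283 ± 24.8 CPM, adjusted p = 0.0134). PnsL4 went from 103 ± 9.54 to 70.1 ± 9.69 CPM (adjusted p = 0.0198). RbcX1, a chaperone of Rubisco assembly, went from 80.9 ± 20.8 to 46.5 ± 5.36 CPM (adjusted p = 0.0289) and from 106 ± 9.96 in rdd (adjusted p = 0.00527, in all 22 alternatives).

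No list of photosynthesis genes had more than 1 call. Of 31 measured light harvesting and photosystem genes 1 fell, LHCB4.2 (806 ± 203 to 359.6 ± 100 CPM, adjusted p = 0.0306), and the list's median was −0.08. LHCB4.3, a relative of that antenna protein, went from 85.3 ± 31.2 to 21.3 ± 10.6 CPM (adjusted p = 0.0289). For LHCB4.2 the rdd level was lower still (239.7 ± 17.5 CPM). The 5 Rubisco genes were uncalled with a median of −0.45. These 7 calls, from CA2 to LHCB4.3, rested on few libraries: each was lost without drdd B and without drdd C, with adjusted p of 0.053 to 0.229 without drdd C. Other single libraries that ended a call were WT D for PnsL4, WT B, WT D and drdd D for RbcX1, WT A, WT C and drdd D for LHCB4.2, WT A, WT C and WT D for LHCB4.3, and any WT library, dme A, dme B, rdd A, rdd C or rdd D for CA2. Without WT A and WT C the calls of PnsB3 and RbcX1 held and the others did not. The blue light receptor CRY1 had 263, 181, 235 and 174 CPM in WT A to D, against 111, 110.1 and 119.9 in drdd B to D (log2 fold change −0.91, SE 0.15, adjusted p = 0.0073). Its call held when any single library was left out (adjusted p up to 0.0477), and the adjusted p was 0.0595 without WT A and WT C.

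Genes of the jasmonate pathway were among the rises. Jasmonate is a lipid hormone of wounding and insect defence, made from plastid fatty acids by lipoxygenase, AOS and AOC, finished in peroxisomes, and read by the COI1 receptor, which frees MYC transcription factors. On the synthesis side all 14 measured genes had positive log2 fold changes (median 0.71) and 2 rose, where 0.559% of all tested genes rose. AOC4, an allene oxide cyclase, had 30.6, 32.6, 32.6 and 31.9 CPM in WT A to D, against 51.2, 44.1 and 43.3 in drdd B to D (log2 fold change 0.54, SE 0.11, adjusted p = 0.0239). JMT, which methylates jasmonate, had 3.00, 3.88, 3.80 and 2.72 CPM in WT A to D, against 21.3, 13.5 and 8.36 in drdd B to D (2.11, SE 0.43, adjusted p = 0.0258). Both were also called above rdd (adjusted p = 0.0206 and 0.0416), calls that 4 of 22 alternatives lost for AOC4 and 15 of 22 for JMT (up to 0.114 and 0.202). LOX2, the abundant plastid lipoxygenase, had 745 to 2038 CPM in WT and 1879 to 4825 in drdd, and its groups overlapped.

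Outside the list, ACX5, a peroxisomal acyl-CoA oxidase that takes part in jasmonate synthesis, rose from 17.1 ± 1.46 to 47.2 ± 3.26 CPM (a log2 fold change of 1.46, SE 0.14, adjusted p = 5.01e-05, in all 22 alternatives). It had 49.3, 48.9 and 43.4 CPM in drdd B to D and 55.8 ± 7.27 in rdd. ACX5 lies within 2 Mb of ROS1, in a region where called genes were frequent. None of 16 genes of jasmonate perception, repression and turnover was called (median 0.23).

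On the output side 3 of 12 measured genes rose, where 0.559% of all tested genes rose, and 6 had positive fold changes (median 0.25). BAM5, a beta-amylase of the cytosol, had 0.486, 0.570, 1.49 and 0.494 CPM in WT A to D, against 132, 49.7 and 7.18 in drdd B to D (log2 fold change 6.35, SE 0.96, adjusted p = 0.00503; 5.20 without drdd B). VSP2, a vegetative storage protein with acid phosphatase activity, had 0.567, 0, 0.165 and 0 CPM in WT A to D, against 14.1, 42.4 and 2.36 in drdd B to D (adjusted p = 0.0101). VSP1, separated from VSP2 by 1 annotated gene, had 0, 0.228, 0 and 0.247 CPM in WT A to D, against 19.1, 49.1 and 0.590 in drdd B to D (adjusted p = 0.0259). VSP1 and VSP2 are close copies, and how reads shared between them were counted is not known here, so their separate levels are uncertain. For all 3 genes drdd D was the lowest of the drdd libraries, and every drdd library was above every WT library. Fitted log2 fold changes depended on single libraries: VSP2 had 6.58 in all, 8.12 without WT A and 5.35 without drdd C, and VSP1 had 7.56 in all, 8.35 without WT D and 6.35 without drdd C.

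The jasmonate lists also followed the WT split. The output list had mean log2 CPM of 3.50 in WT A and 2.17 in WT C, 0.21 in WT B and 0.32 in WT D, and 3.97, 3.90 and 1.28 in drdd B to D. Its median log2 fold change was 3.45 without WT A and WT C and −1.10 without WT B and WT D. The synthesis list had 5.77, 4.48, 5.36 and 4.48 in WT A to D, against 6.07, 6.26 and 5.23 in drdd B to D. Without WT A and WT C none of AOC4, JMT, BAM5, VSP1 and VSP2 was called (adjusted p from 0.0704 to 0.22), and neither was any of them without WT B and WT D (0.0536 to 0.0951). Of single libraries, WT A, WT B, WT C, drdd B and drdd C each ended the calls of both AOC4 and JMT, and WT D that of JMT, with adjusted p up to 0.131. VSP1 lost its call without any of the 4 WT libraries, drdd B or drdd C (up to 0.105), and BAM5 and VSP2 kept theirs (up to 0.0226 and 0.0497). What part the state of the single leaves has in these differences was not tested.

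Because VSP1 and VSP2 rose together and stand near each other on chromosome 5, their 250-base windows before the annotated start are shown (TAIR10.1, chr5:8509202-8509451 for VSP1 and chr5:8502225-8502474 for VSP2, both on the minus strand). MYC factors are known to bind the G-box CACGTG and the T/G-box AACGTG; capitals mark a T/G-box on either strand.
VSP1: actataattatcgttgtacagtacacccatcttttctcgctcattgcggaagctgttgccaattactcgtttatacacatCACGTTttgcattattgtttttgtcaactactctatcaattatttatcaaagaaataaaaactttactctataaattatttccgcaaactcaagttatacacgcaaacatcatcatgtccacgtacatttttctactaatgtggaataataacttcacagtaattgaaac
VSP2: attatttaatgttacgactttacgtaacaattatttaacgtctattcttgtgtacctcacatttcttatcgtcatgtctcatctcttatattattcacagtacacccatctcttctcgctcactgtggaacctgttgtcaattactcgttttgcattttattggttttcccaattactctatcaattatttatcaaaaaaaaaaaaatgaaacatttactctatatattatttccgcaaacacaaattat
Neither window holds a G-box, which 5.39% of all windows do. The VSP1 window holds 1 T/G-box, read on the opposite strand and starting 170 bases before the annotated start, and 7.04% of all windows hold this motif; the VSP2 window holds none. The longest run the windows share is 23 bases. A match of letters shows no binding, and the absence of one says only that these letters are not in the window.

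**Figure D3:**
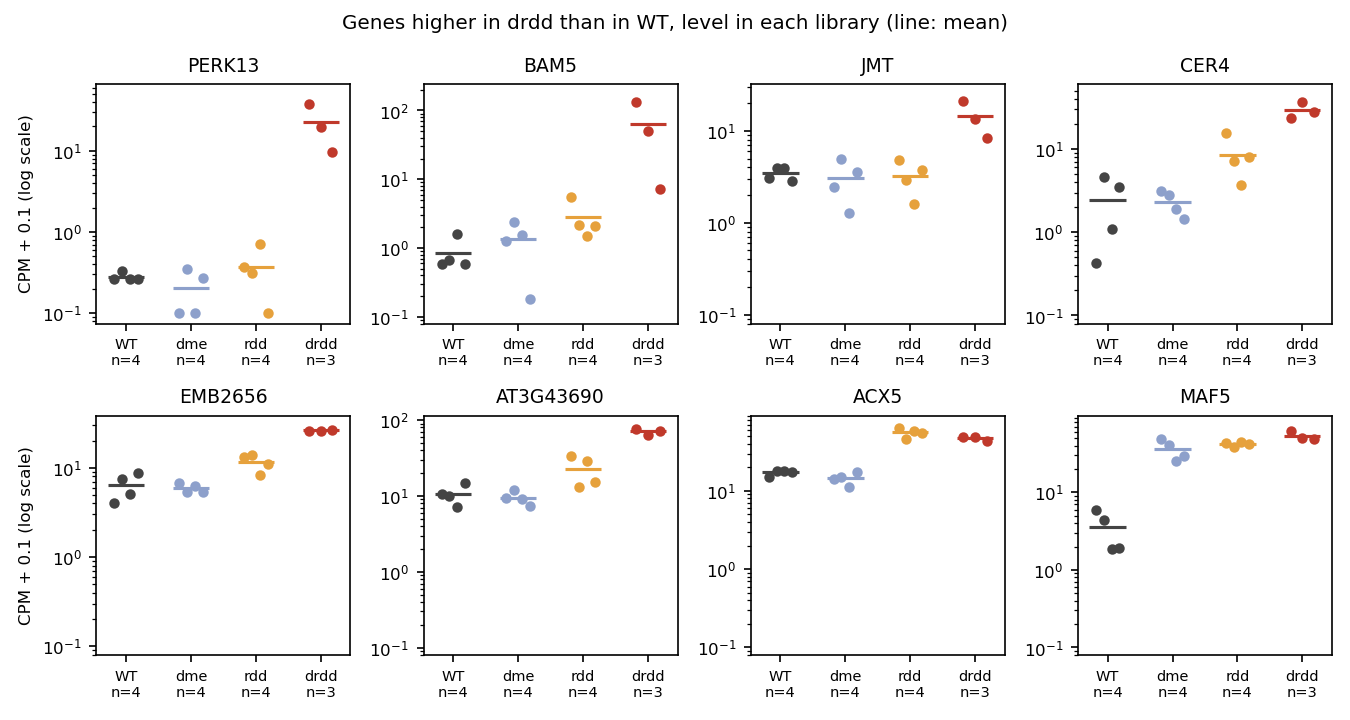
Level of 8 risen genes in every library of WT, dme, rdd and drdd, as CPM + 0.1 on a log scale, with a line at the group mean. PERK13, BAM5 and JMT are high in the drdd libraries, with a wide spread among them, EMB2656 and AT3G43690 step up over rdd, and ACX5 and MAF5 are as high in rdd as in drdd.

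PERK13, a receptor-like kinase known from root hairs, was near the floor in WT leaves. It had 0.162 to 0.228 CPM in WT, at most 0.615 in rdd and 37.5, 19.7 and 9.63 in drdd B to D (log2 fold change 6.90 against WT, SE 0.77, adjusted p = 0.000217, and 6.49 against rdd, SE 0.74, adjusted p = 0.000856, each in all 22 alternatives; 6.29 against WT without drdd B). It was the only one of 8 measured PERK kinases that was called. The list of 13 root hair markers holds PERK13 itself and 1 other gene that passed the count filter, which was not called. EXPA18, RHD6, RSL2, RSL4, XTH12, XTH14 and XTH26 had no count in any WT or drdd library.

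EMB2656, annotated with a role in mitotic chromosome condensation, rose from 3.89, 7.41, 5.04 and 8.73 CPM in WT A to D to 25.9, 26.0 and 26.5 in drdd B to D (log2 fold change 2.06, SE 0.24, adjusted p = 0.000233). In rdd it had 11.5 ± 2.55 CPM, and its rise against rdd (adjusted p = 0.04) was lost in 11 of 22 alternatives. AT3G43690, an annotated pseudogene, rose from 10.5 ± 3.18 to 70.7 ± 7.21 CPM (2.74, SE 0.31, adjusted p = 0.000272) and had 22.4 ± 9.99 in rdd. None of 37 cell cycle and DNA replication genes was called (median 0.39, and 0.16 without WT A and WT C). DMC1, the recombinase of meiosis, rose from 1.98 ± 0.978 to 9.72 ± 2.68 CPM (adjusted p = 0.0101, and 0.0578 without WT A and WT C).

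Some genes of the leaf surface were among the rises. CER4, the fatty acyl-CoA reductase that makes the primary alcohols of leaf wax, had 0.324, 4.56, 0.992 and 3.38 CPM in WT A to D, against 23.2, 36.6 and 27.4 in drdd B to D (log2 fold change 3.68, SE 0.63, adjusted p = 0.0101). Its groups were well apart and the call held without any single library (up to 0.045) and without WT A and WT C (0.0306; log2 fold change 2.87). The log2 fold change was 5.47 without WT B and WT D. SHN2, a transcription factor of wax and cutin genes, had at most 0.248 CPM in WT and 1.28, 1.67 and 2.56 in drdd B to D (adjusted p = 0.0197; log2 fold change 3.93, and 4.69 without WT C). WSD1, a wax ester synthase, had at most 0.988 CPM in WT and 11.2, 13.7 and 1.77 in drdd B to D (adjusted p = 0.0292; log2 fold change 4.19, and 4.88 without WT D). SHN2 was not called without WT B, WT D, drdd C or drdd D (up to 0.0595) nor without WT A and WT C (0.096), and WSD1 not without WT A, WT B, WT C, drdd B or drdd C (up to 0.119) nor without WT A and WT C (0.224). These 3 genes were picked after their values were seen and no list of wax genes was tested. None of 15 measured epidermis and trichome markers was called, and 10 had positive and 5 negative log2 fold changes. The median of that list was 0.45, and 0.06 without WT A and WT C.

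In the stomatal lineage some genes of the early steps rose and FAMA fell. Stomata form from epidermal cells that SPCH sets on the path, TMM and ERL1 are receptors that space them, POLAR marks the dividing cells, and FAMA ends division in guard mother cells. Of 15 measured genes 4 rose and 1 fell (median log2 fold change 0.93, 13 positive), where 0.559% of all tested genes rose and 0.79% fell. ERL1 had 0.567, 1.82, 0.413 and 0.988 CPM in WT A to D, against 2.36, 5.31 and 4.91 in drdd B to D (2.16, SE 0.50, adjusted p = 0.0461), and TMM, POLAR and SPCH rose as well (log2 fold changes 3.64, 3.58 and 4.03; adjusted p = 0.00879, 0.0101 and 0.0278). BASL, a polarity protein of the dividing cell, had at most 0.798 CPM in WT and 1.49 to 4.82 in drdd and was not called (adjusted p = 0.0739). EPF2, another gene of the list, has a log2 fold change of −2.93 in the authors' deposited table, without an adjusted p. FAMA had 29.5 to 40.5 CPM in WT, 35.0 to 44.7 in rdd and 18, 24.8 and 13.4 in drdd B to D, a fall of −0.89 against WT (SE 0.19, adjusted p = 0.0306) and of −1.12 against rdd (SE 0.19, adjusted p = 0.0227).

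Averaged over its genes, the list stood at 1.03 and 1.45 log2 CPM in WT A and WT C, 1.95 and 2.08 in WT B and WT D, and 2.34, 3.30 and 3.34 in drdd B to D. It was also high in rdd, at 2.79, 2.94, 2.87 and 2.41 in rdd A to D. No gene of the list was called higher in drdd than in rdd (median log2 fold change 0.17). Without WT A and WT C none of the 5 was called against WT (adjusted p from 0.0671 to 0.279), while the list's median against WT stayed at 0.97. Single libraries ended the calls of ERL1 (any of 13 libraries, up to 0.208), SPCH (WT A, WT B, WT C, drdd C or drdd D, up to 0.119) and FAMA (WT B, WT C, dme B, drdd B or drdd D, up to 0.12). Of 10 measured guard cell markers TGG1 was the only one called, and the list's median was 0.05. In whole leaves fewer cells of a type and less RNA per cell cannot be told apart.

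Some receptor-like proteins and cysteine-rich receptor-like kinases take part in sensing microbes at the cell surface. The lists here were taken by gene symbol, whatever the role of a member. Of 45 measured receptor-like protein genes 2 fell (median −0.94), and of 32 cysteine-rich receptor-like kinase (CRK) genes 1 fell (median −1.28), where 0.79% of all tested genes fell. Without WT A and WT C both medians were −0.02. RLP34 had 197, 25.1, 141 and 32.4 CPM in WT A to D, against 0.411, 0.197 and 0.786 in drdd B to D (log2 fold change −7.74, SE 1.06, adjusted p = 0.00258), was as low in rdd (0.472 ± 0.494 CPM), and was called without WT A and WT C as well (−5.96, adjusted p = 0.0018). RLP18, annotated as a transcribed pseudogene, went from 3.87 to 31.9 CPM in WT to 0.786 to 1.28 in drdd (adjusted p = 0.0322, and 0.174 without WT A and WT C). Its call was also lost without WT A, WT C or any drdd library alone (up to 0.14). CRK39, with 0.165 to 3.24 CPM in WT and no count in drdd, rested on few counts and passed at an adjusted p of 0.0452, a call lost without dme B, dme D, any drdd or any rdd library (up to 0.149).

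None of the 24 salicylic acid genes was called, with a median log2 fold change of −0.82 over all WT libraries, 0.53 without WT A and WT C and −1.41 without WT B and WT D. PR1, an antimicrobial protein and the usual readout of that hormone, had 1.15 to 503 CPM in WT and 0.197 to 0.513 in drdd (adjusted p = 0.134). A list of 20 rapid touch, wound and cold factors had a median of 2.35 and no call, and the authors' deposited table calls 7 of them higher. Among the drdd libraries its mean was highest in drdd C (5.75 log2 CPM, against 4.05 in drdd B and 3.01 in drdd D), and in WT it ranged from 1.97 to 3.63. CBF2, a cold regulator, had 1.65 to 6.09 CPM in WT and 9.73 to 36.4 in drdd (adjusted p = 0.297).

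**Figure D4:**
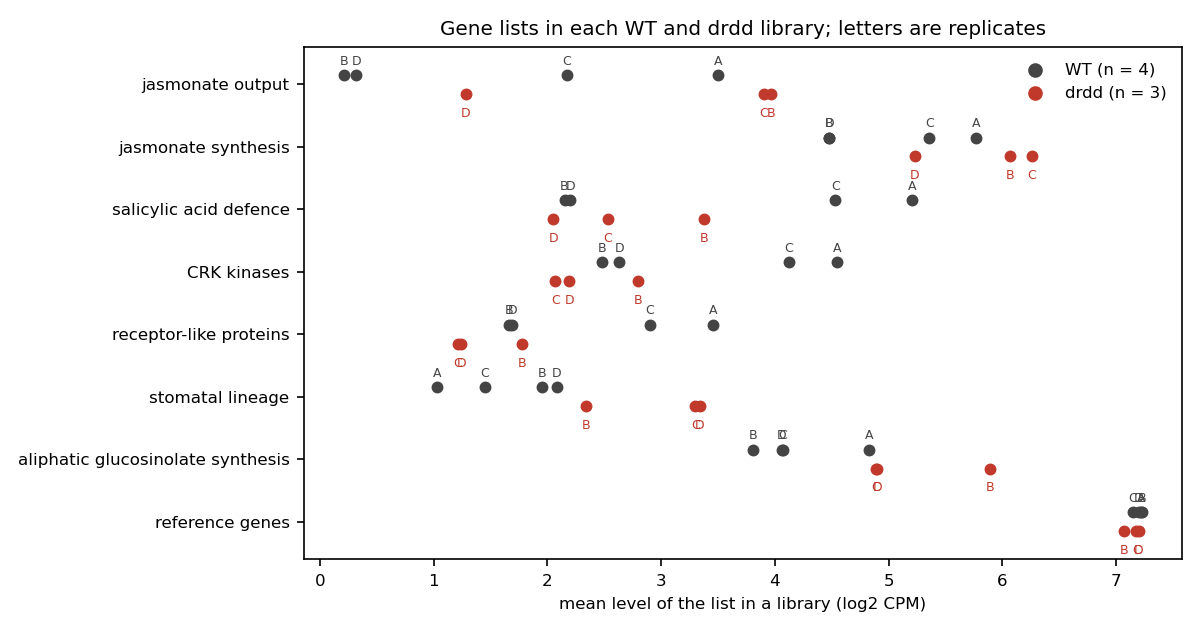
Mean level of 8 gene lists in each WT and drdd library (log2 CPM, mean over the measured members); letters give the replicate. WT A and WT C stand apart from WT B and WT D in the jasmonate, salicylic acid, CRK and receptor-like protein lists, and the reference genes lie between 7.07 and 7.23 in every library shown.

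Among noncoding transcripts and pseudogenes most calls were falls. Of 358 tested noncoding RNAs 1 rose and 11 fell (3.35% called), and of 187 annotated pseudogenes 1 rose and 8 fell (4.81%), against 1.28% of 18003 protein-coding genes. Among loci known for control by DNA methylation, 3 of 14 passed the count filter, and FWA, HDG8 and HDG9 had no count in any WT or drdd library. Of the 3, 1 was called lower, where 0.79% of all tested genes fell, and 2 had negative log2 fold changes. The median was −6.61, with −2.51 without WT A and WT C and −7.55 without WT B and WT D. QQS, an orphan gene that regulates carbon and nitrogen allocation and whose silencing by methylation varies among plants, fell from 21.4, 3.19, 11.4 and 2.06 CPM in WT A to D to 0.0513, 0.0983 and 0 in drdd B to D (log2 fold change −7.32, adjusted p = 0.00452; −6.55 without WT A). The rdd libraries had 0.451 to 1.36 CPM.

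Calls were not spread evenly over the genome. On chromosome 2, which holds ROS1, 73 of 2807 tested genes were called (2.60%), and on chromosomes 1 and 5 34 of 4891 (0.695%) and 36 of 4310 (0.835%). Within 2 Mb of ROS1 27 of 808 genes were called (3.34%) and within 2 Mb of DML2 on chromosome 3 27 of 885 (3.05%), but near DML3 9 of 831 (1.08%) and near DME 6 of 721 (0.832%). Over all 4 regions the share was 2.13%, against 1.19% of 15353 genes elsewhere. The share within the regions was 2.57% with 1 Mb and 1.68% with 5 Mb as the limit. Most calls, 182 of 251, lay outside the 2 Mb regions. Among the genes described above, ACX5, AT2G33830, AT2G40960, EXPA8 and LHCB4.3 lie within 2 Mb of ROS1, RLP34, ESM1, GOX2 and LHCB4.2 within 2 Mb of DML2, CER4 and POLAR within 2 Mb of DML3, and PAL3 within 2 Mb of DME. Sequence differences that came along with a mutant allele and an effect of the allele itself cannot be told apart at such distances.

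**Figure D5:**
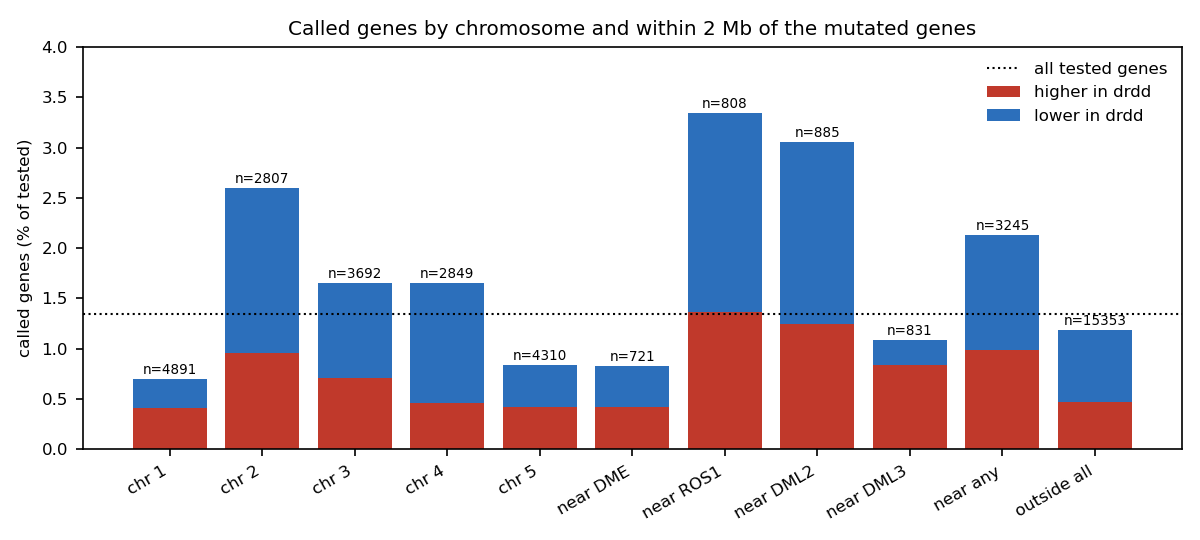
Called genes as a percentage of tested genes on each chromosome and within 2 Mb of each mutated gene, in stacked bars for rises and falls, with the number of tested genes above each bar; the dotted line is the share over all tested genes, 1.35%. Chromosome 2 (2.60%) and the regions near ROS1 (3.34%) and DML2 (3.05%) stand above the line.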

How the data were processed

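Polyadenylated RNA of rosette leaves was sequenced, and the authors deposited raw counts per gene, 1 file per library, with HTSeq summary lines per the file headers. The submitters' processing notes name FastQC, Trim Galore, STAR, HTSeq and DESeq2. Tool versions, the genome build, the annotation and strandedness: not given in the sources used here. The authors also deposited a DESeq2 table of drdd and WT per the file headers, with normalized signal (mean counts over size factors), log2 fold changes, a test score and p-values. Its direction was read from its group means.

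The 5 summary lines were left out of totals. They held 1.54 to 2.17% of reads in no gene and 0.117 to 0.176% in several genes. Of 37336 identifiers 37051 matched RefSeq TAIR10.1, and the other 285 are organelle genes. The counts of all 15 libraries were filtered (filterByExpr, minimum count 10, smallest group 3), scaled by TMM and fitted as 4 group means with edgeR 4.0.16 (robust quasi-likelihood, 11 residual degrees of freedom) in R 4.3.3. Benjamini-Hochberg adjustment ran over all 18598 tested genes. Standard errors come from the fold change and the F statistic. Levels of lists are log2 CPM with a prior count of 2. Alternatives were DESeq2 1.42.0, its size factors, no filter, the 2 groups only, the replicate letter as a block, each library left out, and 2 added after seeing the data, without WT A and WT C or without WT B and WT D. On simulated counts for drdd against WT over 18598 genes, the fit recovered 64% of genes raised 2-fold, 82% of those raised 4-fold, 46% of those lowered to 0.5 and 80% of those lowered to 0.25 of their level, with 7 false among 143 calls. The simulated counts were drawn gene by gene, without the split of WT A and WT C from WT B and WT D. False calls under that split were not measured. Counting error alone limits a gene with no count to 3 counts per library. Intervals of this kind do not cover the spread between plants.

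Genes were named by rule: the mutated genes, FLC and MAF5, the 12 largest non-overlapping called rises and falls with a mean of at least 1 CPM, the 8 most abundant called rises and falls, up to 6 called members of a list, and the 8 lowest adjusted p against rdd. Other called genes in the text outside these lists (among them CER4, SHN2, WSD1, ACX5, CRY1, PnsB3, PnsL4, RbcX1, LHCB4.3, EMB2656, AT3G43690, DMC1, AT2G40960, AT2G21860, KELP, AGP2, PAL3 and AT5G35480) were chosen after their values were seen. The 2 CDPK-related kinases that share CRK symbols were left out of the receptor kinase list. Members and lists were chosen with earlier results of these data known. Tables of comparisons without drdd were not used here.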

Additional observations from a re-analysis of the deposited data

Results flagged for a closer look

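Among the 4 WT libraries, 3 of the 67 genes named by rule had 1 library flagged as far from the others. That is no more than the share of about 1 in 20 that chance gives. PERK13 had 0.228 CPM in WT B, the highest of the 4, against 0.162 to 0.165 in the others. Each of these values is 2 counts, so WT B differed only through its library size. BAM5 had 1.49 CPM in WT C against 0.486 to 0.570 in the others. EDA9, a phosphoglycerate dehydrogenase of serine synthesis, had 52.6 CPM in WT A against 40.3 to 41.6 in the others and 68.5 to 79.4 in drdd (adjusted p = 0.02 in edgeR's quasi-likelihood test).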

How the results depend on the processing

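Against WT, 251 genes were called, 104 higher and 147 lower. DESeq2 called 643 (270 higher, 373 lower), the fit of the 2 groups only 111 (48 and 63), and the fit without WT A and WT C 109 (35 and 74). With 1 library left out the count ran from 105 to 318, with 45 to 151 higher and 60 to 167 lower. Other size factors gave 254, no filter 243 and the fit without WT B and WT D 328. Against rdd the 87 calls became 381 with DESeq2, 50 with the 2 groups only and 19 to 126 with 1 library left out. The cause of these shifts was not tested. Over the 67 genes named by rule and all alternatives, 1139 of 1465 results kept their direction and their side of the threshold, 324 lost the call, 2 gained one and 0 changed sign.

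With the replicate letter as a block 139 genes were called against WT (56 higher, 83 lower) and 50 against rdd. The letters did not pair the WT and drdd libraries: the deviations of those of the same letter correlated at −0.369 for B, −0.169 for C and 0.283 for D. Between dme and drdd the values were −0.0856, 0.508 and 0.167. Between rdd and drdd the values were 0.278, 0.0477 and 0.114, which are not all above 0.1, and no label ties the letters together.

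Limits: drdd has 3 libraries and the WT libraries fall into pairs, so small folds rest on few libraries. Genes near 1 count per library have folds set largely by the prior count.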

Other observations

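DHAR1, a dehydroascorbate reductase that recycles vitamin C, had 112, 114, 107 and 119 CPM in WT A to D, against 372, 385 and 156 in drdd B to D (log2 fold change 1.43, SE 0.28, adjusted p = 0.0234 in edgeR's quasi-likelihood test). The WT libraries were close together and drdd D was well below the other drdd libraries. The call was lost without any 1 WT library, drdd B or drdd C (adjusted p up to 0.126) and without WT A and WT C (0.178). RAB18, a dehydrin that abscisic acid induces, was the 1 called of 15 measured abscisic acid, cold and drought genes, with 10 to 27.7 CPM in WT and 45.6, 66.8 and 30.1 in drdd B to D (adjusted p = 0.0355). It was not called without WT A, WT C, WT D, dme A, drdd B, drdd C, rdd C or rdd D (up to 0.204), and its list had a median of 0.55, and of −0.12 without WT A and WT C.

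A pair of other rises had little spread. AT2G30740, a predicted kinase, had 21.3 ± 1.47 CPM in WT and 41.9 ± 0.449 in drdd (log2 fold change 0.98, SE 0.10, adjusted p = 0.000104), with 42.6 ± 3.56 in rdd. AT3G19515 had 35.0 ± 1.24 CPM in WT, 54.5 ± 2.28 in rdd and 63.3 ± 1.31 in drdd (adjusted p = 7.36e-05). Both calls held in all 22 alternatives. Among 14 measured xylem and secondary wall genes 13 had positive log2 fold changes (median 0.95) and none was called. CESA8, a cellulose synthase of secondary walls, had 2.73 to 5.70 CPM in WT and 7.39 to 15 in drdd (adjusted p = 0.0975).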
